A study of Homo sapiens with 16 samples.

Results

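The BCL2 family was followed in RNA from 2 human leukemia lines after a short treatment with Ro 08-2750 (Ro), a small molecule that the study describes as an inhibitor of the RNA-binding protein MSI2. Members were taken by gene symbol from the deposited counts, and all 10 symbols were found among the 25221 listed genes. They comprised 4 anti-apoptotic genes (BCL2, BCL2L1, MCL1 and BCL2A1), 1 pore-forming effector (BAK1) and 5 BH3-only genes (BCL2L11, BID, BAD, BMF and PMAIP1). MOLM13, an acute myeloid leukemia line, was at passages 8 to 12, and K562, a line from chronic myeloid leukemia, was at passages 12 to 18. Cells received 20 μM Ro for 4 h, or DMSO, and both arms ended at 0.1% DMSO, so the control libraries carry the vehicle too. Each line had 4 DMSO and 4 Ro libraries numbered as pairs 1 to 4, which made 16 libraries. Each disease is represented by 1 established line. The labels do not say what the members of a pair share or whether the pairs were separate cultures, so the p-values measure the spread between these libraries, which may be technical.

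Proteins of the BCL2 family decide whether the outer membrane of the mitochondrion is opened, the step that releases cytochrome c and starts the caspase cascade. The anti-apoptotic proteins hold the effectors BAX and BAK in check, and the BH3-only proteins either occupy the anti-apoptotic proteins or activate the effectors directly. BH3-only proteins differ in their partners: NOXA, the product of PMAIP1, binds mainly MCL1, BAD binds BCL2 and BCL-XL, and BIM, the product of BCL2L11, binds all of the anti-apoptotic proteins. Myeloid leukemia cells commonly lean on BCL2 or MCL1, whereas erythroid cells are known for their use of BCL-XL, the product of BCL2L1.

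BCL2 and PMAIP1 were the members whose counts differed between Ro and DMSO in MOLM13 when the pairs were taken into account, and their promoters are therefore shown. Both genes lie on chromosome 18 in GRCh38.p14, BCL2 at 63123346 to 63320090 on the minus strand and PMAIP1 at 59899996 to 59904305 on the plus strand. Each window runs from 250 bases before the listed RefSeq start to 50 bases after it, at chr18:63319720-63320019 for BCL2, within the annotated bounds of the gene, and at chr18:59899746-59900045 for PMAIP1. The motifs searched, on both strands, were TGACG (the CREB/ATF half-site), TGANTCA (AP-1), TGACNNNGC (the core of the antioxidant response element) and GATAA (the GATA core). The half-site and the antioxidant response element core can overlap, since they share their opening letters. The sequences are RefSeq's, written 5′ to 3′ on the strand of the gene, and capitals mark every match to these motifs.
BCL2: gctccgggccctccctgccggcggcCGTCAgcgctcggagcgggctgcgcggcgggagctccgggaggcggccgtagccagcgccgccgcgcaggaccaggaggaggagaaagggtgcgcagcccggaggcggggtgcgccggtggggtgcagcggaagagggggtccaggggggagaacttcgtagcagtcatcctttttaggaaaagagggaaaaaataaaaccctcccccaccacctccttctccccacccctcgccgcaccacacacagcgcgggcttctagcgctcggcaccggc
PMAIP1: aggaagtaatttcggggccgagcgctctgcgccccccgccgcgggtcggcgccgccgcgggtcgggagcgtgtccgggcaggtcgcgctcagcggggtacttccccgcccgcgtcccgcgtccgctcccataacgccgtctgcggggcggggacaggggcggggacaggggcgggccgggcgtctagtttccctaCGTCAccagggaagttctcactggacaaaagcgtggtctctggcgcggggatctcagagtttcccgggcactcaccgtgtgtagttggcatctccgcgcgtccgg

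Both windows held a single match, the CREB/ATF half-site in reverse orientation, which began 225 bases before the start of BCL2 and 55 bases before that of PMAIP1. The half-site occurred in 24.6% of all 35116 promoters of this length, so its presence in both windows is a common feature and is given as a description. Over the 9 members with a listed promoter (16 windows, MCL1 not being listed), 5 members held the half-site in at least 1 window. BCL2L1 and BAD also held the antioxidant response element core, which was in 13.3% of all promoters, and BID and BMF held the GATA core, which was in 22.7%. The AP-1 letters, present in 7.71% of all promoters, were in 0 of the 16 windows.

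The libraries capture the 3′ ends of mRNAs, where length adds nothing to the count of a gene, and levels were therefore set side by side between genes as CPM, counts scaled by the TMM method to a common total. Isoforms that share a 3′ end, such as the long and short forms of BCL2L1, cannot be told apart. Library totals ranged from 3143129 to 43571060 counts, and the shallowest came from K562 with DMSO, in pairs 2 and 4. The limit of detection was taken as 3 counts, or 0.954 CPM at the lowest depth and 0.0689 CPM at the highest, counting error only. The transcript LOC100507412 took between 0.269% and 24.3% of a library's counts. The line labels were checked with marker genes. The 10 markers listed as monocytic or granulocytic summed to 353 to 455 CPM in MOLM13 DMSO libraries and 66.0 to 132 CPM in K562. The 10 erythroid markers summed to 1807 to 2919 CPM in K562 and 7.49 to 8.65 CPM in MOLM13. The first of these sums was carried by FLT3, MEIS1 and HOXA9, at 159.6, 95.7 and 50.2 CPM on average in MOLM13 DMSO libraries. CD33, CD68 and LYZ did not pass the test between the lines (14.8 against 12.3, 23.0 against 22.3 and 23.3 against 17.9 CPM), and CD14 held at most 8 counts in any library. HOXA9 was at 0 counts in every K562 library. HBE1, an embryonic globin on the erythroid list, was at 0 counts in every library of both lines. It overlaps no other gene in RefSeq, and whether its row was missed in counting was not tested. BCL2, BCL2L1, BID and BAD overlap another gene in RefSeq, and the counting rule for such genes is not given in the sources used here, so their counts carry that uncertainty.

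In DMSO, the 2 lines shared their most abundant member, MCL1, the short-lived anti-apoptotic protein, and differed in the gene that came next. MCL1 stood at 177, 181, 232 and 303 CPM in MOLM13 pairs 1 to 4 and at 266, 307, 185 and 235 CPM in K562. These ranges covered each other almost wholly, and the difference between lines was −0.14 ± 0.24 on the log2 scale (SE, MOLM13 minus K562). BCL2, the founding anti-apoptotic gene, stood at 171, 298, 196 and 140.1 CPM in MOLM13 and at 4.71, 4.36, 6.73 and 7.36 CPM in K562. In MOLM13 its range overlapped that of MCL1, whereas in K562 it came eighth of the 10 members. BCL2L1 showed the opposite order, with 18.9, 20.8, 20.1 and 16.6 CPM in MOLM13 and 71.6, 94.4, 94.4 and 132 CPM in K562. The BCL2L1 libraries of the 2 lines did not overlap, and in K562 its range lay below that of MCL1 and above that of BID. BCL2A1, an anti-apoptotic gene of myeloid and inflammatory cells, had the lowest mean of the members in both lines. It stood at 1.01 to 2.92 CPM (7 to 73 counts) in MOLM13 and 0.335 to 1.05 CPM (2 to 16 counts) in K562. Its range overlapped that of BAD in MOLM13 and that of BMF in K562.

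**Figure D1:**
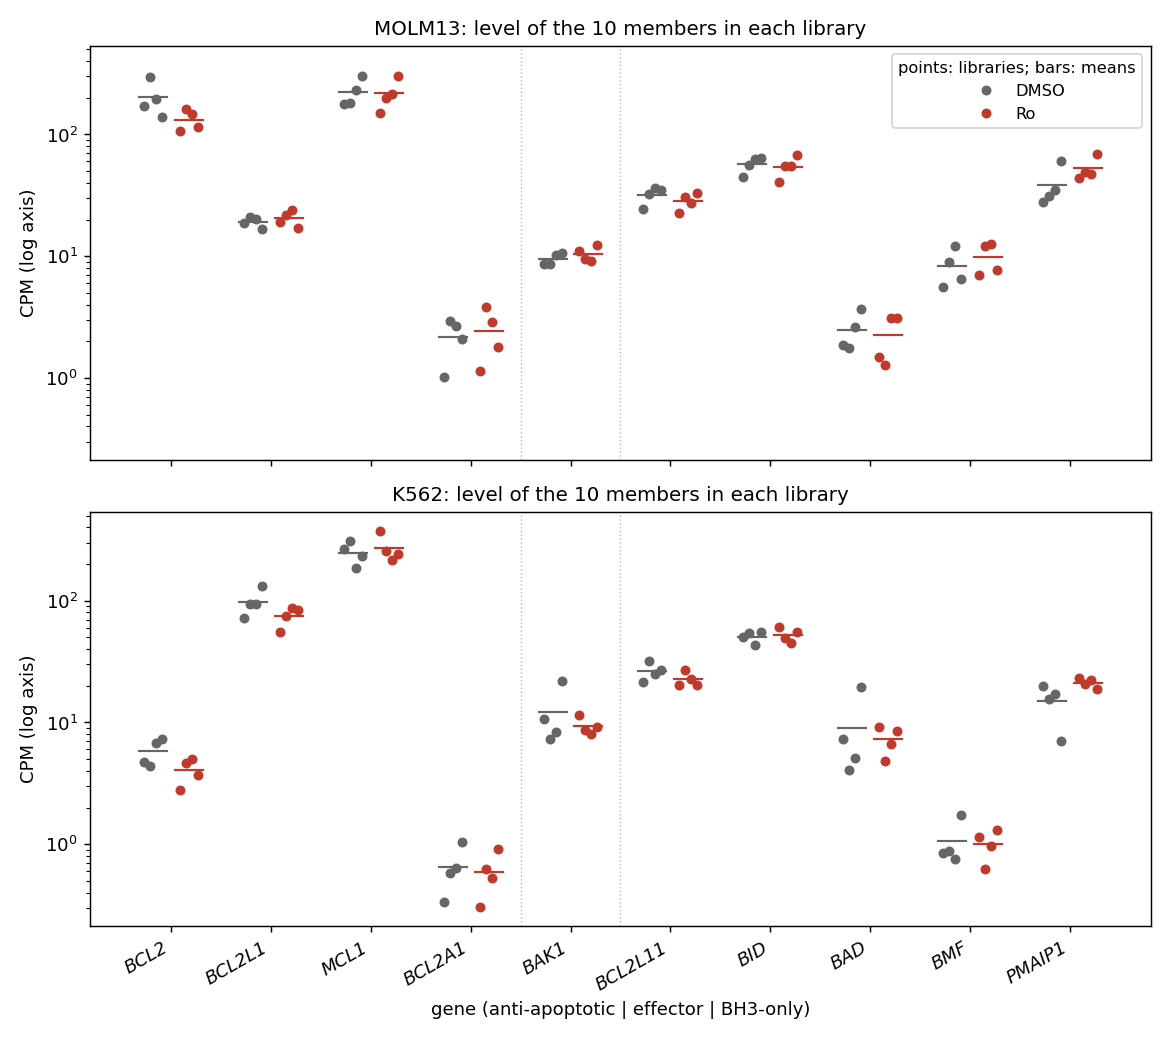
Level of each member in every library, in CPM on a log axis, with MOLM13 above and K562 below; points are libraries (DMSO grey, Ro red, pairs 1 to 4 from left to right) and short bars are group means. BCL2 sits between 140.1 and 298 CPM in MOLM13 DMSO libraries and between 4.36 and 7.36 CPM in K562, and BCL2L1 is placed the other way round.

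BAK1, the effector among the members, was close in both lines, with 8.67 to 10.6 CPM in MOLM13 and 7.26 to 22.1 CPM in K562. The highest K562 value came from the DMSO library of pair 4, and the other 3 lay between 7.26 and 10.7 CPM. Among the BH3-only genes, BID, which caspase-8 cleaves to link death receptors to mitochondria, was the most abundant, at 44.6 to 64.5 CPM in MOLM13 and 43.4 to 54.8 CPM in K562. BCL2L11, expressed at a lower level, stood at 24.6 to 36.2 CPM in MOLM13 and 21.5 to 32.3 CPM in K562. Neither BID nor BCL2L11 separated the lines. PMAIP1 stood at 28.0, 31.4, 35.3 and 60.4 CPM in MOLM13 and at 20.0, 15.7, 17.0 and 7.01 CPM in K562, with no overlap. BMF, a BH3-only protein tied to the cytoskeleton and to anoikis, was at 5.63, 9.04, 12.2 and 6.56 CPM in MOLM13 and at 0.849, 0.872, 0.761 and 1.75 CPM in K562, again with no overlap. BAD, whose activity is set by survival-factor kinases, was at 1.88, 1.77, 2.63 and 3.67 CPM in MOLM13 and at 7.35, 4.07, 5.09 and 19.6 CPM in K562. Every K562 library was above every MOLM13 library for BAD, although the K562 libraries differed among themselves and the highest was again the DMSO library of pair 4.

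Ordered by mean level in MOLM13 DMSO, the members ran MCL1, BCL2, BID, PMAIP1, BCL2L11, BCL2L1, BAK1, BMF, BAD and BCL2A1. Neighbours whose ranges overlapped were MCL1 and BCL2, BID and PMAIP1, PMAIP1 and BCL2L11, BAK1 and BMF, and BAD and BCL2A1. In K562 DMSO the order was MCL1, BCL2L1, BID, BCL2L11, PMAIP1, BAK1, BAD, BCL2, BMF and BCL2A1. The first 4 of these each lay above the whole range of the next gene, while PMAIP1 overlapped BAK1, BAK1 overlapped BAD, BAD overlapped BCL2, and BMF overlapped BCL2A1.

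The line comparison of DMSO libraries (edgeR quasi-likelihood test, Benjamini-Hochberg over all genes tested) called 6 of the 10 members at an adjusted p under 0.05. The lines differ widely, and the same test called 41.3% of the 15268 genes tested, 21.1% of them as higher in MOLM13 and 20.3% as lower. Higher in MOLM13 were 4 members. BCL2 differed by 5.11 ± 0.32 (log2 ± SE, adjusted p = 3.49e-08), which is 34.6-fold. BMF was higher by 3.12 ± 0.36 (adjusted p = 1.09e-05), BCL2A1 by 2.01 ± 0.42 (adjusted p = 0.0017) and PMAIP1 by 1.37 ± 0.33 (adjusted p = 0.00398). The members lower in MOLM13 were BCL2L1 (−2.35 ± 0.23, adjusted p = 1.92e-06), which is 5.10-fold, and BAD (−1.79 ± 0.45, adjusted p = 0.0058). The DMSO libraries of the lines did not overlap for 5 members, BCL2, BCL2L1, BAD, BMF and PMAIP1, against 39.4% of all genes tested. The 4 members not called were MCL1, BAK1 (−0.33 ± 0.32), BCL2L11 (0.29 ± 0.21) and BID (0.19 ± 0.20). Without the K562 DMSO library of pair 4, the BAD difference was −1.15 ± 0.30 (adjusted p = 0.00884) and the BAK1 difference was 0.11 ± 0.21, on the other side of 0.

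**Figure D2:**
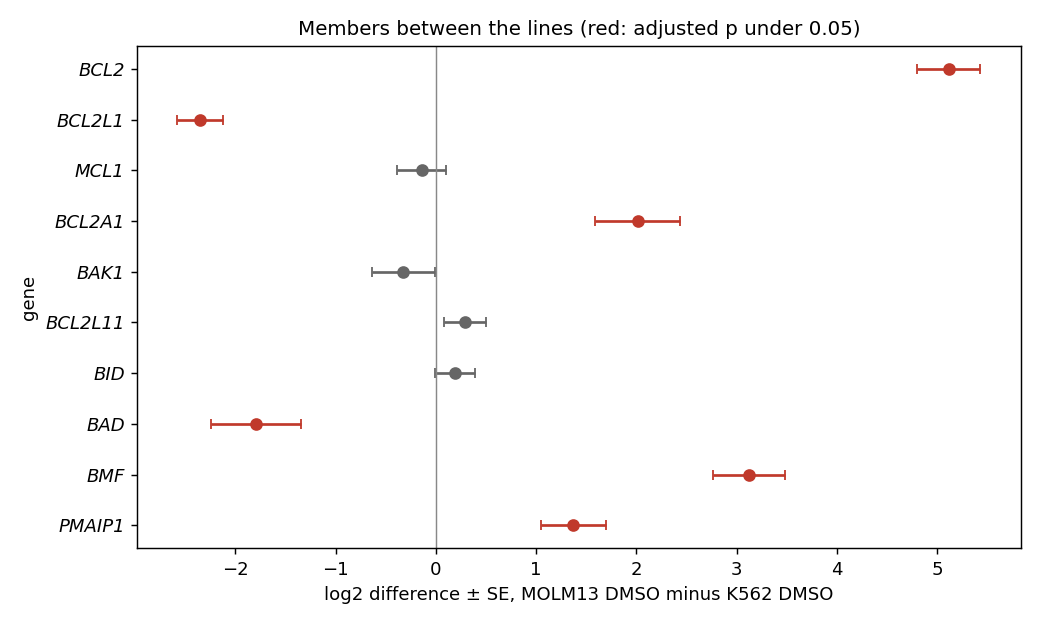
Difference of each member between the DMSO libraries of the lines, MOLM13 minus K562, on the log2 scale with its SE; red marks an adjusted p under 0.05. BCL2, BCL2A1, BMF and PMAIP1 lie to the right of 0 and BCL2L1 and BAD to the left, while MCL1, BAK1, BCL2L11 and BID are grey.

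In MOLM13, Ro lowered BCL2 and raised PMAIP1 within every pair, and these changes passed the test only where the pair was part of the fit. BCL2 stood at 171, 298, 196 and 140.1 CPM with DMSO in pairs 1 to 4 and at 107, 162, 146 and 114 CPM with Ro. Each Ro library was below its own DMSO partner, with log2 changes of −0.68, −0.88, −0.42 and −0.29, although the groups overlapped because the DMSO library of pair 4 was the lowest of its group. PMAIP1 stood at 28.0, 31.4, 35.3 and 60.4 CPM with DMSO and at 44.3, 49.2, 47.4 and 69.8 CPM with Ro. Its changes by pair were 0.66, 0.65, 0.43 and 0.21, and the DMSO library of pair 4 exceeded 3 of the Ro libraries.

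Without the pair in the fit, edgeR called 0 of the 10 members and 0% of the 15031 genes tested in MOLM13. At an unadjusted p under 0.05 there were 126 genes higher and 49 lower, of which BCL2 was the single member (−0.59 ± 0.24, unadjusted p = 0.0321). Without the DMSO library of pair 2 that estimate was −0.34 ± 0.20 (edgeR, unadjusted p = 0.119). DESeq2 without the pair called 1 gene, which was not a member. With the pair as a replicate block, edgeR called BCL2 (−0.55 ± 0.08, adjusted p = 7.52e-04) and PMAIP1 (0.48 ± 0.08, adjusted p = 0.00286), a 1.47-fold fall and a 1.40-fold rise. The background of that fit was 0.938% of genes called higher and 1.17% called lower. DESeq2 with the same block gave −0.57 ± 0.10 for BCL2 (adjusted p = 3.25e-06) and 0.47 ± 0.11 for PMAIP1 (adjusted p = 0.00118). Both genes stayed past the threshold when each pair was left out in turn under the block, with adjusted p up to 0.0215 for BCL2 and 0.0496 for PMAIP1.

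The other 8 members were not called in MOLM13 by either fit. BMF was higher with Ro in all 4 pairs, by 0.06 to 0.43, and came to 0.27 ± 0.12 with the block (adjusted p = 0.245). BCL2L1 was also higher in all 4 pairs, but by 0.002 to 0.26, with 18.9, 21.8, 24.0 and 17.0 CPM after Ro. BCL2L11 was lower in all 4 pairs, by −0.41 to −0.07, and came to −0.16 ± 0.08 (adjusted p = 0.345). Of all genes tested, 10.2% were higher in all 4 MOLM13 pairs and 14.9% were lower in all 4, so the 3 members that were higher throughout (BMF, BCL2L1 and PMAIP1) and the 2 that were lower (BCL2 and BCL2L11) stand against that background. MCL1 was higher in 2 pairs and lower in 2, at −0.03 ± 0.07 with the block, and BID was at −0.06 ± 0.07. These 2 estimates had the smallest errors among the members. BAK1 (0.13 ± 0.12), BAD (−0.12 ± 0.20) and BCL2A1 (0.13 ± 0.20) each moved in both directions across pairs. The Ro and DMSO libraries overlapped for all 10 members, and 1.35% of genes tested had groups that did not overlap.

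**Figure D3:**
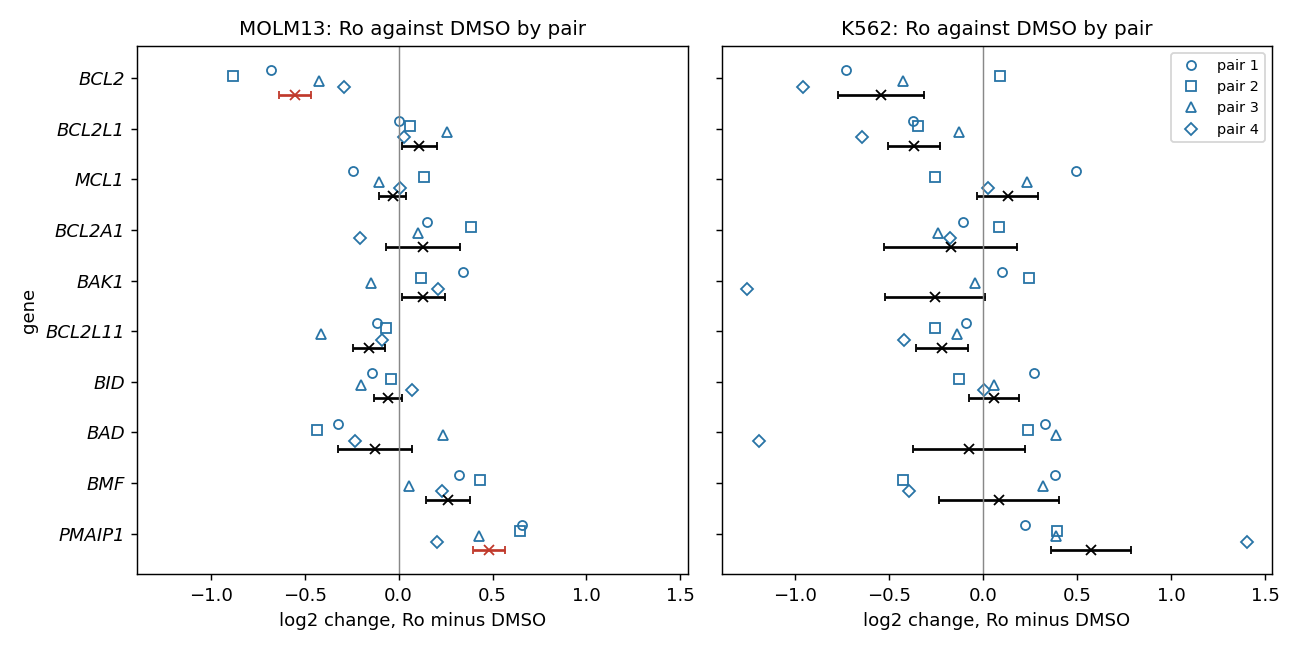
Change with Ro by pair for each member on the log2 scale (Ro minus DMSO; open symbols, 1 per pair), in MOLM13 on the left and K562 on the right, with the estimate under the replicate block and its SE as a cross below them. In MOLM13 the crosses of BCL2 (−0.55) and PMAIP1 (0.48) are red, for an adjusted p under 0.05, and in K562 no cross is red.

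In K562, 0 of the 10 members were called with or without the block, as were 0% of the 15227 genes tested in each of those fits. The study itself reported genes higher and lower with Ro in each line at an FDR under 0.05. Its methods do not name the test behind those genes, and they are not compared here. At an unadjusted p under 0.05 the fit without the block had 52 genes higher and 135 lower and no member, while DESeq2 called 0 genes without the block and 2 with it, neither a member. PMAIP1 stood at 20.0, 15.7, 17.0 and 7.01 CPM with DMSO and at 23.4, 20.6, 22.2 and 18.7 CPM with Ro. It was higher in all 4 pairs, by 0.22, 0.39, 0.39 and 1.41, with an estimate of 0.58 ± 0.21 under the block (adjusted p = 0.947, unadjusted p = 0.0259). The largest of these changes rested on the DMSO library of pair 4, and without that library the estimate, then with no block, was 0.26 ± 0.15 against 0.49 ± 0.26 with it. Under the block, leaving out the whole of pair 4 gave 0.33 ± 0.12 for PMAIP1 (edgeR, unadjusted p = 0.0251), which was not called either. BCL2, already low in this line, stood at 4.71, 4.36, 6.73 and 7.36 CPM with DMSO and at 2.81, 4.65, 4.99 and 3.74 CPM with Ro. It was lower in 3 of the 4 pairs (−0.54 ± 0.23, unadjusted p = 0.0444), and its counts there were 15 to 211 per library.

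BCL2L1, the second most abundant member of K562, stood at 71.6, 94.4, 94.4 and 132 CPM with DMSO and at 55.4, 74.2, 86.4 and 84.2 CPM with Ro. Each Ro library was below its partner, and the estimate was −0.37 ± 0.14 under the block (adjusted p = 0.947, unadjusted p = 0.0292). The groups overlapped, and without the DMSO library of pair 4 the unblocked estimate went from −0.38 ± 0.22 to −0.20 ± 0.18. Under the block, leaving out the whole of pair 4 gave −0.28 ± 0.10 (edgeR, unadjusted p = 0.0257), which was not called either. BCL2L11 was lower in all 4 pairs, at 21.5, 32.3, 25.1 and 27.1 CPM with DMSO and 20.2, 27.0, 22.8 and 20.2 CPM with Ro (−0.22 ± 0.14). PMAIP1 was the single member higher in all 4 K562 pairs, as were 6.84% of genes tested, and BCL2L1 and BCL2L11 were the members lower in all 4, as were 4.64%. No member had groups that did not overlap, against 1.25% of all genes. The remaining members moved both ways across pairs: MCL1 was at 0.13 ± 0.16, BID at 0.06 ± 0.13, BAK1 at −0.26 ± 0.27, BAD at −0.07 ± 0.30, BMF at 0.08 ± 0.32 and BCL2A1 at −0.17 ± 0.35. For BAK1 and BAD the pair 4 changes of −1.26 and −1.19 stood apart from the rest, and the DMSO library of that pair held 22.1 and 19.6 CPM of them.

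Because pairs 2 and 4 of K562 held the shallowest DMSO libraries of the series, the comparison was also made on pairs 1 and 3 alone, with the block. That fit tested 9 of the 10 members, since BCL2A1 fell below the count filter, and it called MCL1 as higher with Ro (0.35 ± 0.11, adjusted p = 0.0444). It called 418 of 13667 genes, or 3.06%. MCL1 went from 266 to 374 CPM in pair 1 and from 185 to 218 CPM in pair 3, whereas it moved from 307 to 257 CPM in pair 2 and from 235 to 239.9 CPM in pair 4. With 2 pairs the fit leans on the spread shared across genes, and the call did not hold over the 4 pairs.

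The change with Ro was then set against the line, in a fit over all 16 libraries. The interaction called 0 members and 0% of the 16224 genes tested, with the block as well as without it. At an unadjusted p under 0.05 there were 218 genes without the block and 975 with it. BCL2L1 was the member with the lowest p. It was higher with Ro in 4 of 4 MOLM13 pairs and lower in 4 of 4 K562 pairs, and the changes differed by 0.48 ± 0.28 without the block and by 0.46 ± 0.15 with it (unadjusted p = 0.0100, adjusted p = 0.766). For BCL2 the difference between lines was −0.01 ± 0.24 under the block and for PMAIP1 it was −0.07 ± 0.23, so that the BCL2 and PMAIP1 calls of MOLM13 were not shown to be particular to that line. Across both lines PMAIP1 was higher with Ro in 8 of 8 pairs, BCL2 was lower in 7 of 8 and BCL2L11 was lower in 8 of 8. The share of all genes with such counts over both lines was not computed. Per line, 10.2% of genes tested in MOLM13 and 6.84% in K562 were higher in all 4 pairs, and 14.9% and 4.64% were lower. BCL2 and PMAIP1 had already been called in MOLM13, so these counts are a description only.

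The relative amounts of the 4 anti-apoptotic genes were given as the percent of their summed counts, which does not depend on how libraries are scaled. In MOLM13 DMSO libraries MCL1 held 50.3% ± 12.2 (SD, n = 4), BCL2 44.9% ± 11.9, BCL2L1 4.33% ± 0.65 and BCL2A1 0.476% ± 0.148. After Ro, MCL1 held 57.7% ± 8.09 and BCL2 36.1% ± 6.85. Within pairs the BCL2 share differed by −7.86, −17.5, −5.86 and −4.19 percentage points, and the MCL1 share was higher by 6.02, 15.6, 3.99 and 3.96 points. In K562 DMSO libraries MCL1 held 70.1% ± 7.57, BCL2L1 28.0% ± 6.99, BCL2 1.69% ± 0.57 and BCL2A1 0.186% ± 0.081. After Ro, MCL1 held 76.5% ± 7.08 and BCL2L1 22.1% ± 6.65, and the BCL2L1 share differed from DMSO by −8.12, −1.17, −4.99 and −9.46 points in pairs 1 to 4. The 4 shares of a library sum to 100%, so the share of MCL1 is higher wherever those of the others are lower. It was higher with Ro in every pair of both lines, although the CPM of MCL1 itself went both ways in each line, with log2 changes of −0.24 to 0.14 in MOLM13 and −0.26 to 0.49 in K562. The share that was lower in every pair was that of BCL2 in MOLM13 and of BCL2L1 in K562. The group ranges still overlapped, and no test was made on the shares.

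**Figure D4:**
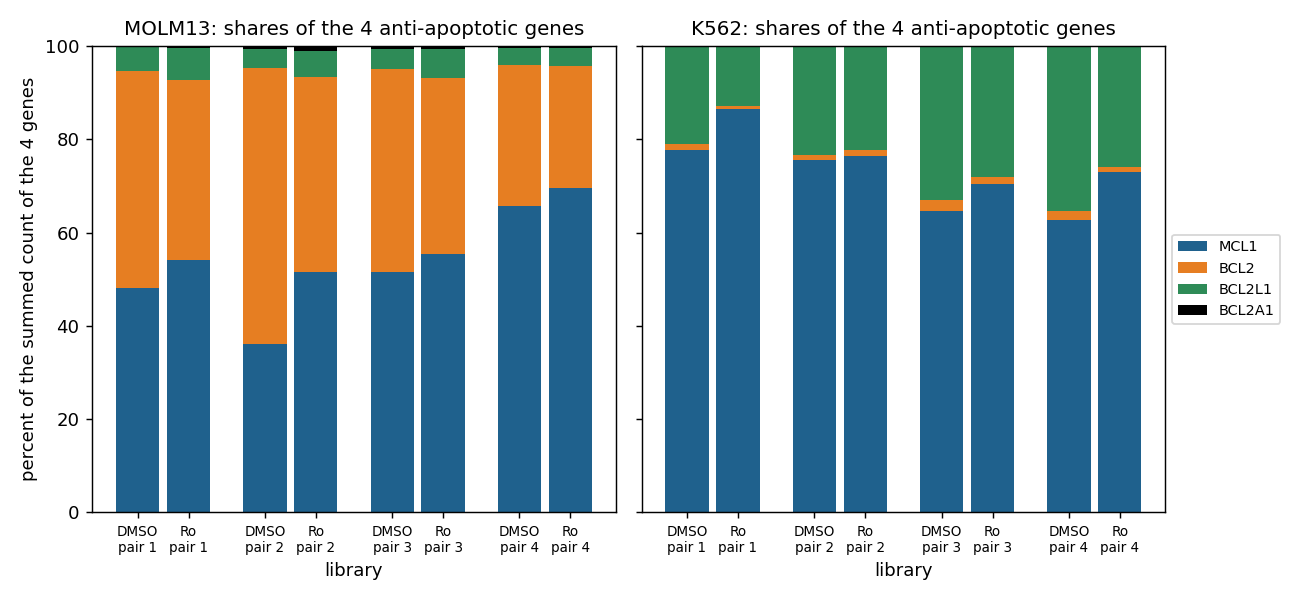
Percent of the summed counts of the 4 anti-apoptotic genes held by each gene in every library, as stacked bars from 0 to 100 percent, paired as DMSO and Ro for pairs 1 to 4. MCL1 (blue) takes a larger share in each Ro bar than in its DMSO partner, BCL2 (orange) is wide only in MOLM13, and BCL2L1 (green) is wide only in K562.

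The count of PMAIP1 was also set against that of MCL1, the partner of its protein. In MOLM13 there were 15.9, 17.3, 15.2 and 19.9 PMAIP1 counts for every 100 MCL1 counts with DMSO and 29.7, 24.6, 22.0 and 22.9 with Ro. The groups did not overlap on this ratio, which is 1 of 3 that were computed, and how often the ratio of a pair of genes separates the groups was not tested. PMAIP1 had already been called in MOLM13, so the separation is a description only. In K562 the ratio was 7.54, 5.11, 9.18 and 2.98 with DMSO and 6.25, 8.03, 10.2 and 7.80 with Ro, and the groups overlapped. The other ratios in MOLM13, MCL1 to BCL2 (0.609 to 2.16 with DMSO and 1.24 to 2.66 with Ro) and MCL1 to BCL2L1 (8.71 to 18.2 and 7.88 to 18.0), overlapped between the groups. They also overlapped in K562, for MCL1 to BCL2 at 27.5 to 70.4 with DMSO and 43.6 to 133 with Ro. For MCL1 to BCL2L1 the K562 ranges were 1.79 to 3.71 and 2.52 to 6.75. The ratios describe RNA counts and carry no test.

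The family holds further genes that were listed and not chosen as members. Of these 13, 10 passed the count filter. BCL2L2 and BCL2L15 were listed at 0 counts in all 16 libraries, and BCL2L10 never exceeded 3 counts. BCL2L2 overlaps the read-through gene BCL2L2-PABPN1 in RefSeq, and BCL2L15 overlaps AP4B1-AS1. In MOLM13, BBC3, which encodes the BH3-only protein PUMA, was the single gene of this list that passed the test with the block. It stood at 14.2, 29.0, 37.9 and 85.8 CPM with DMSO and at 15.1, 42.0, 43.2 and 106 CPM with Ro, so that pairs differed far more than treatments. The change was 0.32 ± 0.08 (adjusted p = 0.0444) with the block in edgeR, whereas DESeq2 with the block gave an adjusted p of 0.0831 and edgeR without it 0.31 ± 0.59. In K562 none of the list was called over the 4 pairs, and BBC3 was at 0.17 ± 0.14 there.

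Between the lines, 3 of the 10 tested genes of that list were higher in MOLM13 and 3 were lower, beside 21.1% and 20.3% of all genes tested. BIK, a BH3-only gene, showed the largest difference (5.42 ± 0.35, adjusted p = 4.75e-08), with 18.6 to 36.1 CPM in MOLM13 and 0.400 to 0.872 CPM in K562 (DMSO). BCL2L14 was higher by 1.49 ± 0.24 and BBC3 by 1.11 ± 0.41. BOK, an effector-like gene, was lower in MOLM13 (−3.21 ± 0.55), and BCL2L12 and BNIP3 differed by −1.40 ± 0.28 and −0.83 ± 0.26. BAX, the other main effector, was not called and ranged from 79.8 to 135 CPM in MOLM13 and from 56.4 to 287 CPM in K562, where the highest value again came from the DMSO library of pair 4.

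Genes that act after or around the family were counted by list. With Ro, 0 of the 14 tested genes of caspase activation, 0 of 10 of the death receptor pathway, 0 of 6 that control MCL1 turnover and 0 of 11 or 12 transcription factors upstream of the family were called in either line over the 4 pairs, with or without the block. At an unadjusted p under 0.05 the blocked MOLM13 fit held 3 lower caspase-activation genes, 3 higher and 1 lower death receptor genes, 1 higher MCL1-turnover gene and 1 lower upstream factor, and the blocked K562 fit held 0 of them. Over all genes that threshold held 1135 higher and 1450 lower of 15031 in the blocked MOLM13 fit, and 129 higher and 193 lower of 15227 in the blocked K562 fit. Their median changes under the block were 0.04, 0.07, 0.06 and −0.02 in MOLM13, against 0.0015 over all genes, and 0.11, 0.05, 0.10 and 0.01 in K562, against 0.02 over all genes. On K562 pairs 1 and 3 alone, 3 of the listed genes outside the members were called, beside 3.06% of all genes in that fit. They were BCL2L14 (0.35 ± 0.10), CFLAR, an inhibitor of caspase-8 (−0.53 ± 0.12), and GATA1, the erythroid transcription factor (−0.36 ± 0.10). By list these were 1 of 9 further family genes tested, 1 of 10 death receptor genes and 1 of 12 upstream factors. Over the 4 pairs with the block none of them was called, at 0.08 ± 0.17, −0.27 ± 0.20 and −0.30 ± 0.14. BCL2L14 went from 202.5 to 193 CPM in pair 2 and from 204 to 158 CPM in pair 4.

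Between the lines, 2 of the 14 tested genes listed for caspase activation were higher in MOLM13 and 6 were lower, beside the 41.3% of all genes called. The list holds inhibitors as well, and BIRC2, BIRC5 and XIAP, of the inhibitor of apoptosis family, were among the 6 that were lower. APAF1, the scaffold of the apoptosome, was higher by 1.45 ± 0.21. CASP9, the caspase that APAF1 activates, was lower (−2.34 ± 0.26), with 2.35 to 4.12 CPM in MOLM13 and 14.5 to 22.4 CPM in K562, and CASP6 and BIRC2 differed by −1.69 ± 0.21 and −1.03 ± 0.20. In the death receptor list 3 were higher (FAS by 2.86 ± 0.34, TNFRSF1A by 1.53 ± 0.25 and TNFRSF10B by 1.07 ± 0.30) and RIPK1 was lower (−0.89 ± 0.20). Of the genes that control MCL1 turnover, the deubiquitinase USP13 (1.37 ± 0.30) and the ubiquitin ligase subunit FBXW7 (0.76 ± 0.24) were higher and the deubiquitinase USP9X was lower (−0.61 ± 0.21), while MCL1 itself did not pass. Among 12 upstream factors 5 were higher in MOLM13, among them FOXO1 (2.79 ± 0.28) and FOXO3 (1.83 ± 0.23). The 3 lower ones were STAT5A (−3.52 ± 0.30), STAT5B (−1.84 ± 0.24) and GATA1, which had at most 2 counts per library in MOLM13 and 48.1 to 76.7 CPM in K562 DMSO libraries. STAT5 and GATA1 are known inducers of BCL2L1 in the erythroid lineage, and their part in its level here was not tested.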

How the data were processed

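RNA was measured in 16 libraries, 4 per group, of MOLM13 and K562 cells with DMSO or Ro. The authors made 3′ mRNA libraries with spike-in RNAs, mapped them with an in-house pipeline and deposited whole-number counts of reads per gene, without normalization. The submitters' processing notes name Trim Galore, STAR 2.5.3a, SAMtools 1.5 and hg38; the counting program and its annotation are not given in the sources used here. The table holds 0 spike-in rows.

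Groups and pairs were read from the labels. Members, lists and tests were chosen with earlier results of these data known. The test was edgeR's quasi-likelihood F test (edgeR 4.0.16, R 4.3.3, TMM scaling) on genes that reached 10 counts in 4 or more libraries, adjusted by Benjamini-Hochberg and read at 0.05, per line, between DMSO libraries of the lines, and as an interaction. A prior count of 2 entered the log2 changes of single pairs. The pair numbers of the titles were checked with the deviations of libraries from their own group's mean. Within pairs these correlated across genes at 0.385 to 0.831 in MOLM13 and 0.109 to 0.416 in K562. Across unlike pair numbers the means were −0.162 and −0.0921, and centering on the group mean itself pulls these below 0. The pairing was not clear throughout. The K562 Ro library of pair 2 correlated more with the DMSO library of pair 3 (0.186) than with its partner (0.109). The MOLM13 Ro library of pair 3 was nearly as close to DMSO pair 2 (0.357) as to its partner (0.385). Values with the pair as a block stand beside the results it changes. No 2 libraries of a group agreed within counting noise (chi-square per degree of freedom of at least 10.1).

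Alternatives were the block, DESeq2 1.42.0 with and without it, DESeq2's size factors, no filter, leaving out each library or pair, and K562 pairs 1 and 3 alone. All members are named in every comparison; from each other list at most 3 called genes per direction were named by smallest p, and other genes were chosen after their values were seen. The results of 2 listed genes are not reported here. Promoters and positions are RefSeq's for GRCh38.p14, read by gene identifier; all 10 members and 25116 of the table's identifiers were matched. Tables and figures used Python 3.11.15, pandas 2.3.3 and matplotlib 3.10.9.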

Additional observations from a re-analysis of the deposited data

Results flagged for a closer look

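A group of 4 values was marked where its highest or lowest value stood far from the other 3 by Dixon's criterion. In all, 4 of the 76 groups tested were marked, and chance marks about 1 in 20. Those marked were levels or changes by pair of members. BMF in K562 DMSO libraries was at 1.75 CPM in pair 4 (10 counts) and at 0.761 to 0.872 CPM in the other 3. The BAD change in K562 was −1.19 on the log2 scale in pair 4 and 0.24 to 0.39 in the others, and the PMAIP1 change was 1.41 in pair 4 and 0.22 to 0.39 in the others. All 3 of these values involve the K562 DMSO library of pair 4, which held 4383241 counts. The BCL2L11 change in MOLM13 was −0.41 in pair 3 and −0.11 to −0.07 in the others.

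BCL2L1 was marked because its change with Ro was positive in every MOLM13 pair and negative in every K562 pair. The difference between lines was 0.48 on the log2 scale and did not pass the interaction test (adjusted p = 1.0, and 0.766 with the block).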

How the results depend on the processing

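Of 478 alternative values of the members' log2 changes, 428 kept their direction and side of the threshold, 13 newly passed it and 37 changed sign. In MOLM13 the count of members called with Ro went from 0 to 2 with the replicate block and to 2 in DESeq2 with the block. It was 0 in each of the 8 fits that left out a library, which had no block. In each of the 4 fits that left out a pair, which had the block, it was 2. In K562 the count went from 0 to 1 on pairs 1 and 3 alone. The pairing changed no other call among the members. DESeq2 gave no adjusted p for BAD and BCL2A1 in the blocked MOLM13 fit. The estimates that changed sign were all uncalled, and the cause was not tested. In K562, BCL2A1 was −0.17 with the block and −0.16 in DESeq2 with it, and on pairs 1 and 3 BAK1 was 0.014 and BAD 0.35. In the interaction with the block, BCL2A1 was 0.29 and BAD −0.060. Leaving out a library or pair moved MOLM13 estimates over −0.22 to 0.15 (MCL1), −0.17 to 0.32 (BCL2A1), −0.17 to 0.051 (BID) and −0.33 to 0.13 (BAD). In K562 the ranges were −0.071 to 0.25 (MCL1), −0.28 to 0.40 (BCL2A1), −0.52 to 0.079 (BAK1), −0.035 to 0.12 (BID), −0.50 to 0.34 (BAD) and −0.11 to 0.33 (BMF), and BAK1 between lines ranged over −0.48 to 0.11. The 6 line calls held in all 8 fits that left out a library. Depth limits BCL2A1 and BMF in K562, with as few as 2 and 3 counts.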

Other observations

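BCL2L14, which belongs to the wider family, had higher CPM than any of the 10 members within every MOLM13 library. It stood at 364, 475, 571 and 708 CPM with DMSO and at 279.6, 466, 450.1 and 622 CPM with Ro, and at 156 to 204 CPM in K562 DMSO libraries. It was lower with Ro in 4 of 4 MOLM13 pairs (−0.22 ± 0.07 under the block, edgeR adjusted p = 0.114).

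BIK, the BH3-only gene that separated the lines, stood at 25.0, 18.6, 21.5 and 36.1 CPM with DMSO in MOLM13 and at 12.8, 16.4, 16.2 and 30.6 CPM with Ro, lower in 4 of 4 pairs but not called (−0.39 ± 0.11 under the block, edgeR adjusted p = 0.0539). Of all genes tested in MOLM13, 14.9% were lower in all 4 pairs. BBC3 and BCL2L12 were highest in pair 4 of MOLM13 with both treatments, at 85.8 and 106 CPM and at 170.5 and 138 CPM, and so was PMAIP1. These genes were picked after their values were seen.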
